A study of Mus musculus with 10 samples.

Results

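The 9 genes described here, Msln, Upk3b, Upk1b, Lrrn4, Gpm6a, Wt1, Krt8, Krt18 and Krt19, are markers of mesothelium, and they were taken by symbol from a count table of 26040 mouse genes. The table holds RNA sequencing of epididymal white adipose tissue, a visceral depot beside the epididymis. The knockout group was 5 libraries of C57BL/6 mice that lack the succinate receptor gene Sucnr1 in adipocytes (Ad-Sucnr1 KO), and the control group was 5 libraries of C57BL/6 mice with floxed Sucnr1 alleles (Sucnr1fl/fl). The labels name neither the Cre driver nor age, diet or litter. Libraries carry the numbers 2 to 6 in each group, and their total counts ranged from 24182798 to 30603326. The comparison asks whether loss of the receptor from adipocytes went with a change in the outer cell layer of the fat pad. The targeted gene, Sucnr1, had 3.10 ± 1.01 CPM in knockout libraries and 59.6 ± 17.4 CPM in control libraries (SD, n = 5 each). CPM are counts scaled to the size of the library, with TMM factors.

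Mesothelium is a flat epithelium of mesodermal origin that lines the body cavities and covers the organs in them, visceral fat pads included, while subcutaneous fat has none. It secretes a lubricating surface fluid and makes surface glycoproteins such as mesothelin. Its cells also make the keratins of simple epithelia, and the epididymal duct, the vas deferens and, for keratins 8 and 18, hepatocytes make them as well. RNA of such tissues can enter a dissected epididymal fat pad, so each marker is given library by library. In whole tissue, fewer cells of a type and less RNA per cell cannot be told apart.

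No marker passed the test between the groups, but the markers differed in how they varied from library to library. Msln, Upk3b, Upk1b, Lrrn4 and Gpm6a varied together, over a range that was narrow beside that of the keratins. Krt8 and Krt18 varied over a wide range and were highest in the 5 libraries that held most RNA of other epithelial genes. All 9 markers had enough counts to be tested, with 129 to 5162 counts per library. Of the 9, 0 passed an adjusted p of 0.05 (edgeR quasi-likelihood test), against 0.0608% of the 16446 genes tested (0.0243% higher and 0.0365% lower in the knockouts). At an unadjusted p under 0.05 there were also 0 of the 9, against 10.1% of all tested genes, and DESeq2 and limma-voom called 0 as well. In 0 of the 9 did the groups stand apart without overlap, against 1.91% of all tested genes. With 2 markers higher and 7 lower in the knockouts, their median log2 fold change was -0.12, beside -0.03 over all tested genes.

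The stretches of DNA before 4 of the genes are printed here because these genes make the 2 pairs with the highest Pearson's r between libraries, Upk3b with Lrrn4 and Krt8 with Krt18. Each runs 5′ to 3′ on the gene's own strand from RefSeq's promoter table (GRCm38.p6, the build also called mm10), up to the first base that RefSeq or GENCODE counts as transcribed. The positions are chr5:136038246-136038495 on the plus strand for Upk3b, chr2:132880892-132881112 on the minus strand for Lrrn4, chr15:102004483-102004592 on the minus strand for Krt8 and chr15:102027966-102028179 on the plus strand for Krt18. Capitals mark a match to a searched motif on either strand, GGAATG (bound by TEAD factors) in Upk3b and Lrrn4 and AGATAA (bound by GATA factors) in Krt8.
Upk3b: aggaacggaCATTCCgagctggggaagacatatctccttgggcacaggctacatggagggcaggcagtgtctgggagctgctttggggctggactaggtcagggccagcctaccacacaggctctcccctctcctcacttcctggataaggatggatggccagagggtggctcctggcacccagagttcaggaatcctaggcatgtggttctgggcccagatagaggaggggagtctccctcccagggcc
Lrrn4: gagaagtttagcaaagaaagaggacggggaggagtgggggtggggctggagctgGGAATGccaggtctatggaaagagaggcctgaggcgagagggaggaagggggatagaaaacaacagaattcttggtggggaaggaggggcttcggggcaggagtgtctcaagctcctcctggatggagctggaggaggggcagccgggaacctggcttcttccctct
Krt8: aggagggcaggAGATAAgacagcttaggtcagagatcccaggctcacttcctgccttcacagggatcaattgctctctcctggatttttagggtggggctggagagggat
Krt18: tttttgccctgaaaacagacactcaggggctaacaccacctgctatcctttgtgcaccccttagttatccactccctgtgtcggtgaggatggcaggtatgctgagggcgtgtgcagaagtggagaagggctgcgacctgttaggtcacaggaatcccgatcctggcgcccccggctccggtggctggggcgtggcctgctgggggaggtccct

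Of the 9 markers, 5 had an entry in the promoter table, the 4 above and Gpm6a. In the 250 bases before the RefSeq start, GGAATG was present for Upk3b, for Lrrn4 and in 1 of the 2 windows listed for Gpm6a, but not for Krt8 or Krt18. It was present in 12.6% of 32851 such windows over all genes. AGATAA was present for Krt8 alone among the 5 markers and in 9.99% of all windows. The GC box GGGCGG, the AP-1 motif TGANTCA and GCGNGGGCG, a motif shared by EGR factors and WT1, were in none of these windows, against 32.7%, 6.75% and 4.70% of all windows. A match is a run of letters and not a measured binding site.

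Msln encodes mesothelin, a glycoprotein anchored to the cell surface. It is on the minus strand of chromosome 17, from 25748613 to 25754378 (mm10). Its level was 21.6, 21.9, 35.5, 25.7 and 34.3 CPM in knockout libraries 2 to 6, against 20.1, 42.3, 34.7, 19.6 and 25.6 CPM in control libraries 2 to 6. The knockouts lay inside the range of the controls. The fold change of knockout over control was 0.976 with a 95% interval of 0.669 to 1.42 (edgeR adjusted p = 0.966).

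Upk3b encodes uroplakin 3b, a membrane protein related to those of the urothelial surface. It stood at 63.1, 59.1, 65.8, 54.0 and 77.9 CPM in knockout libraries 2 to 6, against 43.5, 98.4, 96.7, 47.5 and 64.5 CPM in control libraries 2 to 6. The 2 highest and the 2 lowest libraries were all controls, with the knockouts between them. The fold change was 0.913, with a 95% interval of 0.633 to 1.31 (edgeR adjusted p = 0.845). Upk1b, a tetraspanin that pairs with uroplakin 3 proteins in the bladder, stood at 22.2, 19.0, 18.1, 16.5 and 26.0 CPM in the knockouts, against 15.5, 23.0, 23.8, 12.9 and 17.9 CPM in the controls. Here the highest library was knockout 6 and the lowest control 5. Its fold change was 1.09, with an interval of 0.818 to 1.46 (edgeR adjusted p = 0.81).

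Lrrn4 encodes a membrane protein with leucine-rich repeats. It stood at 33.5, 30.9, 29.1, 27.0 and 36.9 CPM in knockout libraries 2 to 6, against 23.8, 46.6, 46.2, 26.5 and 27.7 CPM in control libraries 2 to 6. Control libraries 3 and 4 were again the highest. Gpm6a, a membrane glycoprotein best known from neurons, stood at 25.7, 28.7, 32.8, 28.6 and 43.7 CPM in the knockouts, against 22.7, 50.9, 45.9, 24.5 and 28.4 CPM in the controls. Its order over the libraries was close to that of Lrrn4, with controls 2 and 5 lowest. The fold changes were 0.921 for Lrrn4 (95% interval 0.671 to 1.26) and 0.925 for Gpm6a (0.628 to 1.36), with edgeR adjusted p of 0.839 and 0.875.

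Wt1 encodes a zinc finger transcription factor of mesothelium that also marks progenitors of visceral fat. The gene is at 105126529 to 105173616 on chromosome 2, plus strand. Its level was 41.7, 25.0, 25.7, 25.2 and 24.1 CPM in knockout libraries 2 to 6, against 17.2, 37.3, 34.1, 18.3 and 17.6 CPM in control libraries 2 to 6. Knockout library 2 stood well above the other knockouts, which lay between 24.1 and 25.7 CPM. Knockout over control, the log2 fold change was 0.19 (SE 0.27, edgeR adjusted p = 0.808), and it was 0.007 without knockout library 2.

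**Figure D1:**
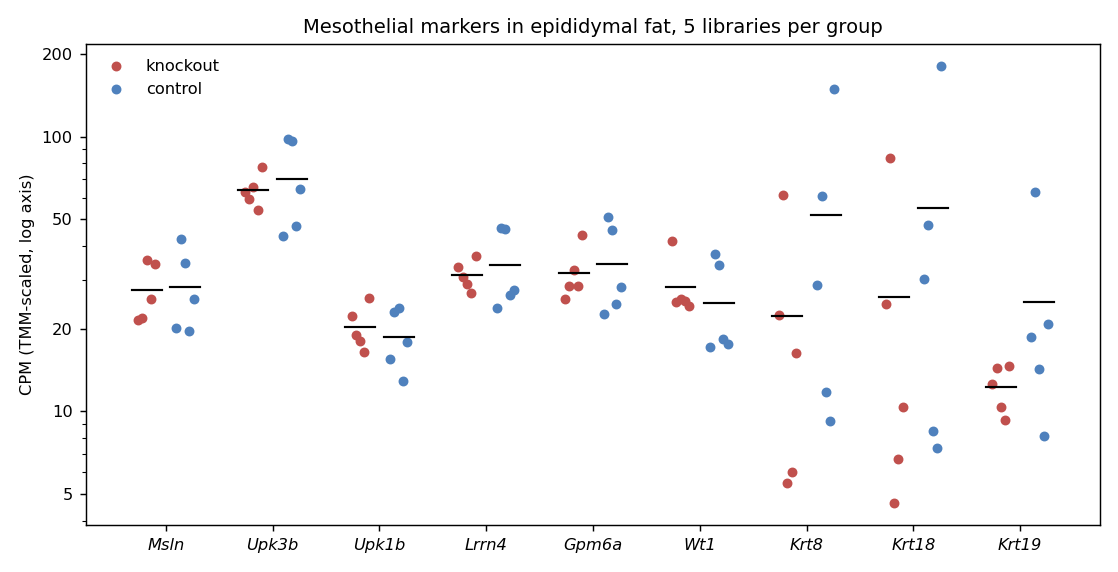
CPM of each marker (log axis) in the 5 knockout libraries (red, left) and the 5 control libraries (blue, right), with black bars at the group means. The groups overlap for every marker; Msln to Wt1 span at most 2.43-fold between libraries, whereas Krt18 spans 39.0-fold.

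Krt8 and Krt18 encode the type II and type I keratins that form the filaments of simple epithelia as partners. The genes are neighbours on chromosome 15, Krt8 on the minus strand from 101996698 to 102004482 and Krt18 on the plus strand from 102028180 to 102032027. Krt8 stood at 22.4, 61.1, 5.47, 6.01 and 16.2 CPM in knockout libraries 2 to 6, against 28.9, 61.0, 11.8, 9.23 and 148.8 CPM in control libraries 2 to 6. Krt18 stood at 24.7, 83.7, 4.64, 6.72 and 10.4 CPM in the knockouts, against 30.4, 47.5, 8.47, 7.35 and 181 CPM in the controls. For both genes the 5 highest libraries were knockouts 2 and 3 and controls 2, 3 and 6. Krt8 averaged 22.2 CPM with an SD of 22.9 over the 5 knockouts and 51.9 CPM with an SD of 58.0 over the 5 controls, so the SD exceeded the mean. The log2 fold changes were -1.22 for Krt8 (SE 0.92, edgeR adjusted p = 0.659) and -1.08 for Krt18 (SE 1.07, adjusted p = 0.734). Without knockout library 3 the log2 fold changes were -2.05 for Krt8 and -2.24 for Krt18. Without control library 6 they were -0.32 for Krt8 and 0.15 for Krt18.

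The level of Krt18 relative to Krt8 was steadier than either gene. The ratio of their CPM was 1.10, 1.37, 0.849, 1.12 and 0.640 in knockout libraries 2 to 6, against 1.05, 0.779, 0.718, 0.796 and 1.22 in control libraries 2 to 6. The lowest ratio belonged to knockout library 6. Alb, which encodes the albumin made by hepatocytes, reached 4310 CPM there, where the other libraries had 8.69 to 83.1 CPM. Knockout library 6 had little RNA of other epithelia (1.46 CPM of the epithelial adhesion gene Epcam). It had more Krt8 than knockout 5, which had more Epcam (2.63 CPM), and than knockout 4, which had less Epcam (0.216 CPM). The part of liver RNA in this was not tested.

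Krt19, a type I keratin of ducts and mesothelium, stood at 12.6, 14.4, 10.4, 9.28 and 14.7 CPM in knockout libraries 2 to 6, against 18.7, 62.9, 14.2, 8.14 and 20.8 CPM in control libraries 2 to 6. Only control library 3 was far from the rest. Its log2 fold change was -1.02 (SE 0.48, edgeR adjusted p = 0.502), and -0.34 without control library 3. By exact permutation of the libraries the two-sided p was 0.214, the smallest among the 9 markers. Akr1b7, an aldo-keto reductase of the vas deferens, reached 5106 CPM in control library 3, against 0.203 to 10.1 CPM in the knockouts and 0 to 807.5 CPM in the other controls. The part of vas deferens RNA in the Krt19 level was not tested.

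Mean levels per exon length put Krt18, Krt8 and Upk3b first in both groups, but the order at the top cannot be told from the spread. In the knockouts the place of Krt18 and Krt8 at the top is itself uncertain, because their means rest on few libraries. Their median CPM there was 10.4 for Krt18 and 16.2 for Krt8, against means of 26.0 and 22.2 CPM. Krt18 had 18.1 ± 23.1 RPKM (CPM per kilobase of exon) in the knockouts and 38.2 ± 50.4 in the controls, and Upk3b had 18.1 ± 2.53 in the knockouts and 19.9 ± 7.44 in the controls (SD, n = 5 each). Krt8 had 11.4 ± 11.7 RPKM in the knockouts and 26.5 ± 29.6 in the controls. Gpm6a, Upk1b, Msln and Lrrn4 were neighbours between 8.47 and 9.92 RPKM in the knockouts and between 8.91 and 10.7 in the controls. Their SDs were 1.04 to 2.21 RPKM in the knockouts and 2.27 to 4.05 in the controls, and their order was not tested. Krt19 had 6.62 ± 1.29 RPKM in the knockouts and 13.5 ± 11.7 in the controls. Wt1 had the lowest means per exon length, with 4.58 ± 1.21 RPKM in the knockouts and 4.02 ± 1.60 in the controls. This place depends on the length used, all annotated exons together, which was 6195 bases for Wt1. In CPM, Wt1 averaged 28.3 in the knockouts and 24.9 in the controls, above Upk1b at 20.3 and 18.6.

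The 5 genes Msln, Upk3b, Upk1b, Lrrn4 and Gpm6a moved together between libraries of the same group. After centring log2 CPM within each group, Pearson's r over the 10 libraries lay between 0.696 and 0.951 for their 10 pairs, and Spearman's rho between 0.564 and 0.915. Pearson's r was 0.951 for Upk3b with Lrrn4 and 0.929 for Msln with Gpm6a (permutation adjusted p = 0.0109 for each). Spearman's rho was 0.915 for both pairs (permutation adjusted p = 0.0432 for each). Without the 2 libraries farthest from the median of 1 gene of the pair (here Upk3b and Msln), r was 0.908 for Upk3b with Lrrn4 and 0.959 for Msln with Gpm6a. Libraries far out only for the other gene of a pair stayed in, here and below. Adjusted over all 36 pairs of markers, 7 of the 10 pairs passed a permutation test within groups on Pearson's r and 2 on Spearman's rho. The share of passing pairs among other genes was not computed. These counts therefore do not set the 5 genes apart from other genes, and genes of other cells also followed their mean (below). Leaving out the 2 farthest libraries gave r of 0.760 to 0.959. Wt1 had r of 0.498 to 0.836 with these 5 genes, and 0 of its 5 pairs passed.

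Krt8 and Krt18 followed each other (r = 0.984, permutation adjusted p = 0.0018; rho = 0.976, permutation adjusted p = 0.00432; r = 0.964 without the 2 farthest libraries). In the 12 pairs of Krt8 or Krt18 with Wt1 or one of the 5 genes, r lay between -0.204 and 0.292, and 0 passed. Krt19 lay between, with r of 0.462 to 0.620 for its 6 such pairs, none past the threshold (lowest permutation adjusted p = 0.249), and after leaving out the 2 farthest libraries its r ranged from -0.144 to 0.725. With the keratins, Krt19 had rho of 0.818 with Krt8 (r = 0.620) and 0.794 with Krt18 (r = 0.536). Neither pair passed (permutation adjusted p of rho 0.0656 and 0.0759), and without the 2 farthest libraries r was 0.839 with Krt8 and 0.765 with Krt18. By edgeR's dispersion within groups, Krt8, Krt18 and Krt19 varied more than 94.9%, 96.1% and 88.9% of all tested genes, and Wt1 and the 5 genes more than 56.8% to 73.4%.

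**Figure D2:**
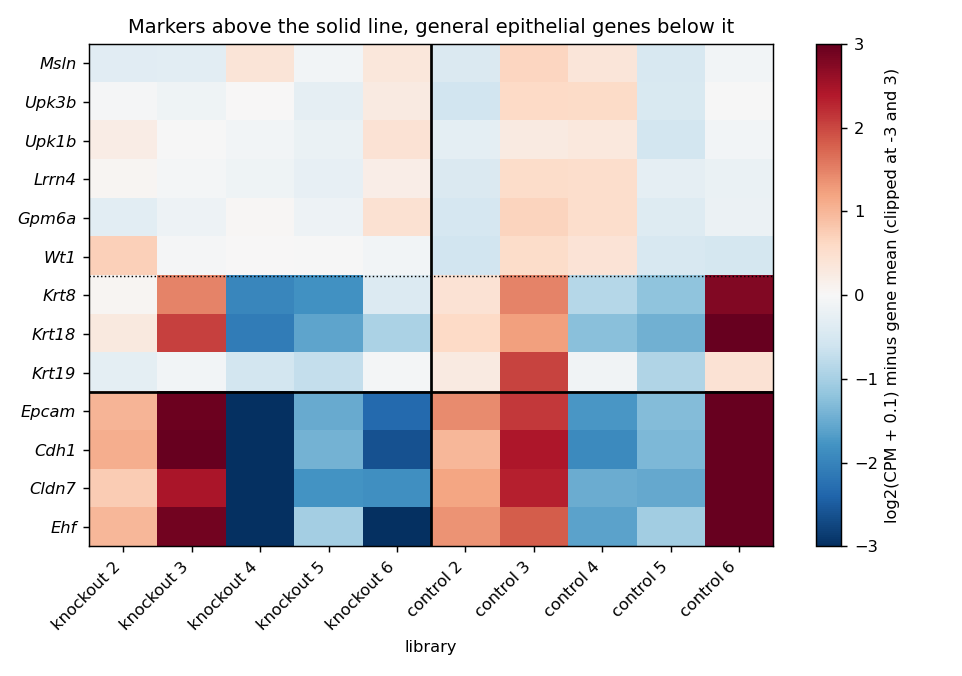
Log2(CPM + 0.1) minus the gene's mean, by library, knockouts left and controls right, for the 9 markers (above the solid line) and for Epcam, Cdh1, Cldn7 and Ehf of other epithelia (below it). Msln to Wt1 stay pale, and from Msln to Gpm6a controls 3 and 4 are the highest and controls 2 and 5 the lowest controls, whereas Krt8 and Krt18 share the strong contrast of the epithelial genes.

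Genes of other epithelia were high in the same 5 libraries as Krt8 and Krt18. A list of 16 genes of epithelia in general, such as the adhesion genes Epcam and Cdh1, summed to 117.7, 431.2, 5.14, 22.5 and 12.7 CPM in knockout libraries 2 to 6, against 148, 310.7, 16.03, 22.7 and 857.1 CPM in control libraries 2 to 6. The libraries thus fell into 5 with sums of at least 117.7 CPM and 5 with at most 22.7 CPM. Within the 5 high ones, knockout 2, control 2, control 3, knockout 3 and control 6 came in that order both for this sum and for Krt18. Within the 5 low ones the orders differed, with Krt18 highest in knockout 6. Crisp1, a secretory protein of the epididymis, was also highest in the same 5 libraries, at 971 to 8572 CPM, and at 1.29 to 184 CPM in the rest. All 16 genes of the list were lower in the knockouts, none past the threshold (lowest edgeR adjusted p = 0.513), as Krt8 and Krt18 were.

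How far each marker moved with such RNA within groups was fitted over all genes, first against an epididymal score, the mean log2 CPM of 6 tested genes of epididymal epithelium. Of the 9 markers, 0 passed, against 2.82% of all tested genes (2.62% upward and 0.201% downward). The slopes nearest to passing were those of Krt18 (0.33 log2 units per log2 unit of the score, edgeR adjusted p = 0.0731) and Msln (-0.07, adjusted p = 0.131). Control library 3 held 2715 CPM of Crisp1 but only 0.115 CPM of Adam7 and 0.461 CPM of Lcn5, both genes of the epididymal duct, so its score was low. Without control library 3, Krt8 (slope 0.40, adjusted p = 0.009) and Krt18 (0.50, adjusted p = 0.00191) both passed. Without control library 5, Msln passed downward (slope -0.09, adjusted p = 0.0459). Over all genes, 1120 slopes passed without control library 3 and 396 without control library 5, against 464 with all libraries. No marker passed when any other library was left out.

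A score of the 16 general epithelial genes ranks control library 3 among the high libraries. It was put in place of the epididymal score after the values of Krt8 and Krt18 in control library 3 were seen, so its slopes describe these libraries and are no independent test. In that fit the adjusted p was under 0.05 for 2 of the 9 markers, both upward, and for 10.9% of all tested genes (8.04% upward and 2.86% downward). The slope of Krt18 was 0.75 log2 units per log2 unit of the score (SE 0.06), and 0.676 to 0.780 with 1 library omitted. That of Krt8 was 0.61 (SE 0.08), and 0.548 to 0.667 with 1 library omitted. Krt19 had a slope of 0.19 (SE 0.11). For Wt1 and the 5 genes the slopes ranged from -0.06 to 0.01. For Msln the slope was -0.058 with a standard error of 0.058, and for Upk3b it was -0.023 with a standard error of 0.057. Because the libraries fall into 5 high and 5 low, the slopes rest mainly on the contrast between them.

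**Figure D3:**
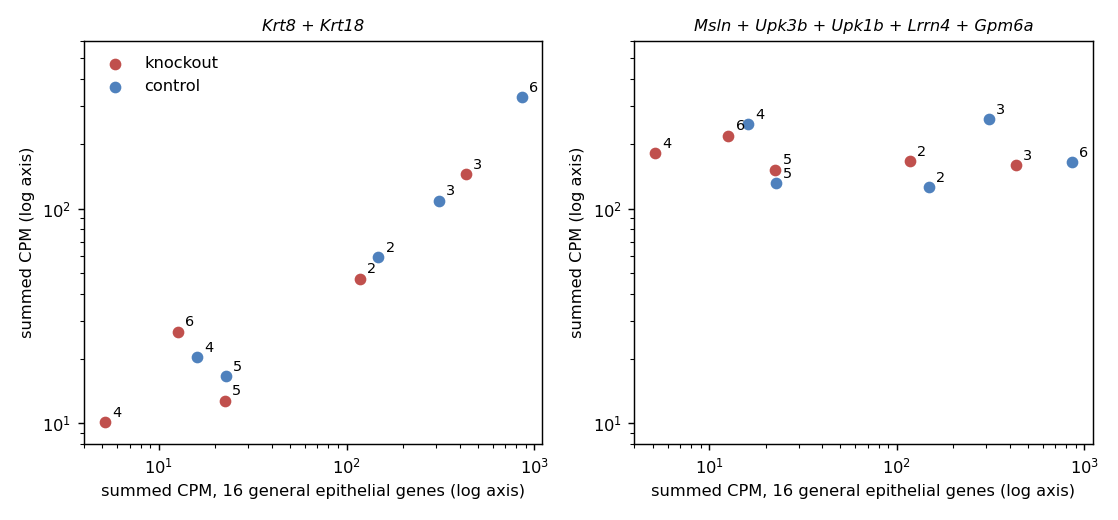
Summed CPM of Krt8 and Krt18 (left) and of Msln, Upk3b, Upk1b, Lrrn4 and Gpm6a (right) against the summed CPM of 16 general epithelial genes, 1 point per library, numbered, knockouts red and controls blue, all axes log. The keratin sum ranges from 10.1 CPM in knockout 4 to 329.8 CPM in control 6 along the epithelial sum, whereas the other sum stays between 125.6 and 261.2 CPM.

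Further genes of mesothelium made a list of 20, of which 18 were tested. None passed between the groups, 6 were higher and 12 lower in the knockouts, and their median log2 fold change was -0.04. Of the 18, 14 spanned less than 2.5-fold between libraries. Among them Muc16, the large mucin that binds mesothelin, stood at 119, 102.5, 99.0, 91.0 and 115.5 CPM in knockout libraries 2 to 6, against 69.3, 135.3, 137.9, 69.0 and 103.4 CPM in control libraries 2 to 6. Controls 3 and 4 were highest and controls 2 and 5 lowest, as for Upk3b. Over the 18 genes, the lowest library was control 2 or 5 for 13, and the highest was control 3 or 4 for 10. The same held for 6 and 4 of the 6 genes made up of Wt1 and the 5 markers, and for 14.4% and 21.2% of all tested genes. These controls were picked from the values of the markers, and the genes do not vary independently, so the counts are descriptions and no test. The CPM SD was larger among controls than among knockouts for all 6, for 17 of the 18 and for 67.1% of all tested genes. Pearson's r with the mean of Msln, Upk3b, Upk1b, Lrrn4 and Gpm6a, over the 10 libraries after centring within groups, spread widely over the 18 genes. It was 0.942 for Igfbp6, which encodes a binding protein of insulin-like growth factors, and 0.913 for Muc16. Podxl (0.382), Ildr2 (0.324), Slc39a8 (0.190), Gata6 (0.187), Krt7 (0.159) and Cldn15 (0.034) had the lowest values. These correlations are descriptions.

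The 4 genes of that list with the smallest p were Slc39a8, Podxl, Efemp1 and C3. Slc39a8, a metal ion transporter, averaged 41.3 CPM with an SD of 21.1 in the knockouts and 91.5 CPM with an SD of 73.7 in the controls (log2 fold change -1.14, edgeR adjusted p = 0.533). Its highest libraries were controls 6 and 3, at 178.6 and 163.6 CPM, and knockout 3, at 78.4 CPM. Its slope on the general epithelial score was 0.37 (SE 0.08). Podxl, a sialomucin of mesothelium and endothelium, had a log2 fold change of -0.20, Efemp1, a matrix protein of the fibulin family, had -0.15, and C3, the central complement component, had 0.20 (edgeR adjusted p of 0.665, 0.673 and 0.759). On the same score Krt7, a simple epithelial keratin, had a slope of 0.19 (SE 0.05), and the tight junction gene Cldn15 had -0.12 (SE 0.02).

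Other uroplakins were scarce, except Upk1a in some libraries. Upk1a, the bladder partner of uroplakin 2, ranged from 0.18 to 6.44 CPM in the knockouts and from 0.532 to 16.8 CPM in the controls, and was highest in control 6. Its slope on the epididymal score was 0.44 (edgeR adjusted p = 0.00272), and those of Upk1b and Upk3b, -0.02 and -0.05, did not pass. The slopes of Upk1a, Slc39a8, Krt7 and Cldn15 were not refitted without 1 library. Upk2 and Upk3a, which belong to the bladder plaque, had at most 0.731 CPM in any library. Calb2, which encodes calretinin, a diagnostic marker of human mesothelium, stood at 0 to 0.103 CPM in the knockouts and at 0 to 1.54 CPM in the controls.

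**Figure D4:**
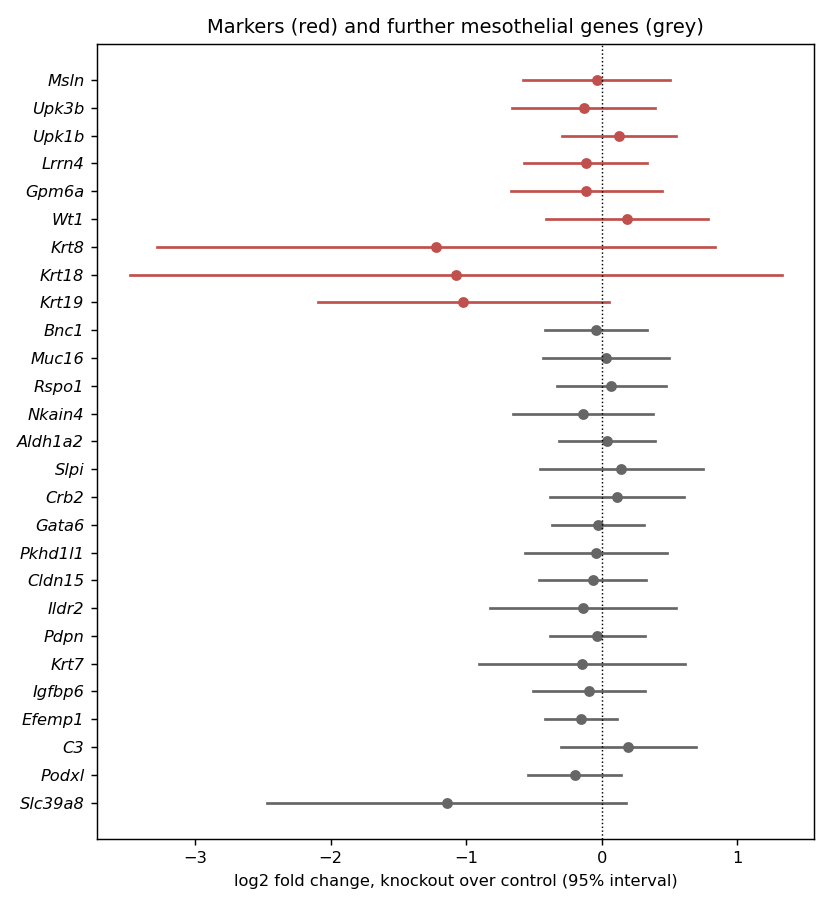
Log2 fold change, knockout over control, with its 95% interval from edgeR, for the 9 markers (red) and the 18 tested further mesothelial genes (grey). Every interval includes 0, and those of Krt8, Krt18 and Slc39a8 are the widest.

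The genes whose pattern over the 10 libraries was most like the mean of Msln, Upk3b, Upk1b, Lrrn4 and Gpm6a were Tubb2b, Fbln1, Gata5, Rpain and Tmem119. They were taken as the 5 highest by Pearson correlation of group-centred log2 CPM outside all lists, so these values carry no test. Tubb2b, a beta tubulin, had 0.972, Fbln1, an extracellular matrix glycoprotein, 0.966 and Gata5, a GATA family transcription factor, 0.957. Rpain, whose product binds replication protein A, and Tmem119, a membrane protein known from osteoblasts and microglia, had 0.952 each. Spearman's rho ranged from 0.915 to 0.976 over these 5 genes.

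Some markers of the other cells of the pad were high in the same libraries as the mesothelial markers or the keratins. The summed level of 12 adipocyte genes ran from 38090 to 54850 CPM in the knockouts and from 25300 to 51450 CPM in the controls, lowest in controls 6 and 3, where Krt8 was high. With the adipocyte score in the fit, the log2 fold changes of Krt8 and Krt18 turned to 0.57 and 0.91 (edgeR adjusted p of 0.671 and 0.581). Of the 12 adipocyte genes, 11 were themselves higher in the knockouts, 0 past the threshold, so the score may carry part of the difference between the groups. Over 10 progenitor genes the sums were 2484 to 2948 CPM in the knockouts and 2256 to 3436 CPM in the controls, highest in controls 3 and 4. Macrophage genes summed to 601.7 to 877.4 CPM in the knockouts and 599.2 to 1061 CPM in the controls, again highest in controls 3 and 4, the libraries highest for Upk3b, Lrrn4 and Gpm6a. Pearson's r with the mean of the 5 markers, computed as above, was 0.793 for Cd163 and 0.701 for Mrc1, scavenger and mannose receptors of macrophages, and 0.738 for Cd34, a surface marker of progenitors and endothelium. It was 0.696 for Wt1. Within the whole lists, r ranged from 0.429 to 0.793 over the 8 macrophage genes and from 0.041 to 0.738 over the 10 progenitor genes. For a list of 8 endothelial genes r ranged from -0.398 to 0.09. Adipoq, the adipocyte hormone adiponectin, stood at 2251 to 3003 CPM in the knockouts and at 1515.5 to 3444 CPM in the controls. Krt5 and Krt14, keratins of basal epithelial cells, had at most 4.55 CPM in any knockout library and at most 14.3 CPM in any control library. The part of these cells in the level of the markers was not tested.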

How the data were processed

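Raw counts per Ensembl gene were deposited by the authors with no normalization. Per the labels' protocols, 300 ng of total RNA entered a stranded library kit, and the submitters' processing notes name STAR 2.5.2 and mm10. Counting program and annotation, and whether strand was used, are not stated by the labels, so overlapping genes are uncertain: Krt8 overlaps the opposite-strand lincRNA Gm36026, and Gpm6a overlaps 5 unconfirmed transcripts on its own strand. A processed pseudogene of Krt8, on chromosome 7, can share its reads and is not in the table. Symbols, coordinates and exon lengths came from GENCODE M21. Nothing says the libraries came from separate animals beyond the design's n = 5 per group; no pair within a group agreed within sampling noise (lowest chi-square per degree of freedom 33.1). The p-values measure only the spread between these libraries.

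Genes were filtered with filterByExpr (minimum count 10, minimum total 15; 16446 left), scaled by TMM and tested with edgeR 4.0.16 in R 4.3.3 (robust quasi-likelihood, group as the only term, Benjamini-Hochberg over all genes tested, threshold 0.05). Log2 CPM used a prior count of 2. Slopes on the scores were tested in the same way with group in the model. The members and lists were chosen with earlier results of these data known. The genes named are all markers, the 4 further mesothelial genes with the smallest p, defining genes of the other lists and the 5 genes of most similar pattern. Krt7, Cldn15, Muc16, Upk1a, Upk2, Upk3a, Calb2, Igfbp6, Ildr2, Gata6, Cd163, Mrc1, Cd34, Cldn7, Ehf, Adam7 and Lcn5 were chosen after their values were seen. Pair correlations used 100000 permutations within groups. The exact permutation test over 252 assignments cannot go below 0.00794. In simulated counts of 16446 genes for the group comparison, the test recovered 2% of the 50 changes of 1.5-fold, 48% at 2-fold, 84% at 4-fold and 96% at 8-fold. The changed genes were drawn at random from all tested genes, and Krt8, Krt18 and Krt19 vary more than most of those. The simulated set also gave 121 calls, against 10 in the data. These rates therefore do not give the chance of finding a change in the markers. Alternatives were 3 scalings, 2 filters, DESeq2 1.42.0, limma-voom (limma 3.58.1), a replicate block, marker scores as covariates and libraries left out.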

Additional observations from a re-analysis of the deposited data

Results flagged for a closer look

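In 5 of 26 groups of 5 libraries, taken over 13 named genes, 1 library lay apart from the others by Dixon's test (gap over range above 0.71). For normally distributed values chance alone flags about 1 in 20 groups, and the 13 genes are not independent. The test was run on CPM and not on log2 CPM, so a high library stands out more readily. The count of 5 in 26 is therefore not to be set against that rate. Wt1 stood at 41.7 CPM in knockout library 2, against 24.1 to 25.7 CPM in the other knockouts. Krt18 stood at 83.7 CPM in knockout library 3 and at 181 CPM in control library 6. Krt19 stood at 62.9 CPM in control library 3. Slc39a8 stood at 78.4 CPM in knockout library 3. Of these libraries, knockout 3, control 3 and control 6 had the largest sums of general epithelial genes, at 431.2, 310.7 and 857.1 CPM.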

How the results depend on the processing

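The count of 0 calls among the 9 markers and among the 18 further mesothelial genes held in all 13 alternatives and all 10 fits without 1 library. Over all genes, 10 calls became 213 with DESeq2, 4 with the replicate block, 3 without the 5 epithelium-rich libraries (knockouts 2 and 3, controls 2, 3 and 6), and 3 to 18 without 1 library. Same-numbered libraries of the 2 groups deviated together for some numbers only (correlations of 0.377, -0.113, 0.632, 0.436 and -0.096 for numbers 2 to 6). Knockouts 4 and 5 were most like the controls of their own number. This did not hold for every number. The labels do not state that the numbers mark pairs, so they were not taken as pairs in the main fit. A batch shared by number was not tested. Calls of a slope on the epididymal score over all genes went from 464 to 268 with a minimum count of 50, to 1794 with the general epithelium score, and to 128 to 1120 without 1 library (128 without control 6, 161 without knockout 3, 1120 without control 3). Among markers they went from 0 to 1 with Crisp1 alone as the score (Krt18), to 2 with the general epithelium score, and to 0 to 2 without 1 library; Msln passed downward without control 5 (adjusted p = 0.0459). For the general epithelium score, calls over all genes went from 1794 to 916 with the replicate block and to 440 to 2165 without 1 library (440 without knockout 3, 641 without control 6, 907 without control 5), while the 2 calls among markers held throughout. The alternatives with that score were chosen after seeing the data.

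Several uncalled fold changes changed sign, among them those of Krt8, Krt18, Krt19 and Slc39a8, which were -1.02 to -1.22 with all libraries and no covariate. On the log2 scale, Msln had 0.000836 with limma-voom, 0.00322 with the replicate block, 0.00589 with the adipocyte score and 0.226 without the 5 epithelium-rich libraries, where Wt1 had -0.068, Krt19 0.034 and Slc39a8 0.051. With the adipocyte score, Krt8 had 0.57, Krt18 0.91 and Slc39a8 0.23, and Krt18 had 0.11 with the general epithelium score. Without 1 library, Msln ranged from -0.144 to 0.145, Upk3b from -0.263 to 0.015, Lrrn4 from -0.224 to 0.014, Gpm6a from -0.253 to 0.064 and Krt18 from -2.24 to 0.15. Slopes also turned: on Crisp1 alone Wt1 had 0.00328 and Krt19 0.082, and on the general epithelium score Wt1 had 0.00703 and Krt19 0.192. With that score, the replicate block gave -0.042 for Wt1 and -0.081 for Krt19, RLE gave 0.000211 for Upk1b, and library totals gave 0.0205 for Upk1b and 0.00397 for Lrrn4. Without 1 library the epididymal slope of Krt19 ranged from -0.060 to 0.072, and the general epithelium slopes ranged from -0.056 to 0.027 for Upk3b, -0.030 to 0.042 for Upk1b, -0.046 to 0.028 for Lrrn4 and -0.033 to 0.065 for Wt1. The cause was not tested.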
